A study of Mus musculus with 12 samples.

Results

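The genes described here are the interleukins and interleukin receptors outside the IL-1 family, taken by symbol (*Il* and a digit) after leaving out *Il1a*, *Il1b*, *Il1rn* and the IL-1 receptor genes, *Il18* and its receptors, the *Il1rapl* genes, *Il33*, *Il34* and the IL-36 genes. The name rule took 62 of the 49315 genes in the count table. Of these 62, 46 had a total of 20 or more counts over the 12 mice and are the members, comprising 30 of 32 receptor genes, 14 of 28 ligand genes, the amino acid oxidase gene *Il4i1* and *Il1bos*, an antisense transcript of *Il1b* that the name rule does not remove. The remaining 16 were below that total, and 3 of them (*Il9*, *Il17a* and *Il31*) had no count in any mouse. Just below the threshold were *Il10* and *Il21* with 15 counts each, *Il17b* and *Il23a* with 17 each and *Il22* with 19, and just inside it were *Il6* with 20, *Il13* and *Il23r* with 21 each and *Il25* with 22.

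RNA was sequenced from the brains of 12 male mice at 14 d post-stroke, 6 per group. Recipients in both groups were CD45.1 Pep Boy mice on a C57Bl6 background, aged 8 to 12 weeks, which were irradiated with the head shielded and underwent 30 min of middle cerebral artery occlusion 8 to 10 weeks after transplantation. WT mice received BM containing 10% CD45.2 *Tet2*+/+ and 90% CD45.1 *Tet2*+/+ cells, whereas *Tet2*-KO mice received 10% CD45.2 *Tet2*-/- and 90% CD45.1 *Tet2*+/+ cells. The deletion was therefore carried by a fraction of the transplanted cells, and the recipient's own brain cells and most donor cells kept *Tet2*, so the level of *Tet2* in brain cannot check the labels. The titles and genotype entries separate the groups, while the treatment entry of the labels reads the same for all 12 mice. Sham brains were not analysed here, so every difference below is between 2 stroke groups.

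Interleukins are secreted proteins through which leukocytes, and to some extent glia, signal to each other. Most of the receptors here are pairs of a chain specific to the ligand and a chain shared within a family. The common gamma chain (*Il2rg*) serves the receptors for IL-2, IL-4, IL-7, IL-9, IL-15 and IL-21. gp130 (*Il6st*) serves IL-6, IL-11 and IL-27, IL-10RB (*Il10rb*) serves IL-10 and IL-22, and IL-17RA (*Il17ra*) serves several IL-17 cytokines. The type I and type II receptors among them act through JAK kinases and STAT factors, whereas IL-17 receptors act through the adaptor encoded by *Traf3ip2*. In brain, IL-10 and IL-4 are known for acting on microglia and macrophages, IL-7 and IL-2 for maintaining lymphocytes, and IL-6 for driving astrocyte reactions through gp130.

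Libraries held 12000261 to 15340787 counts in WT mice and 12625047 to 21049763 in *Tet2*-KO mice. All levels are CPM, counts scaled to library size with TMM factors, and comparisons between genes use CPM divided by the kilobases of annotated exon. The edgeR quasi-likelihood F test (two-sided) was fitted to the 20290 genes that passed its low-count filter. Markers of neurons, astrocytes and oligodendrocytes were present in every brain, and no marker of any list was at 0 in all mice.

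Receptors, rather than ligands, made up most of the interleukin signal. *Il6st* alone held 44.0% of all 82194 counts assigned to the members. Per kilobase of exon it also had the highest level, 18.5 CPM per kb over all mice, followed by *Il17d* (8.21), *Il10ra* (7.20), *Il4* (6.63), *Il10rb* (5.73), *Il4ra* (4.51), *Il13ra1* (4.29) and *Il2rg* (3.68 CPM per kb). The highest members of the other families were *Il3ra* in the beta chain family, *Il12rb2* in the IL-12 and IL-23 family and *Il16*, which belongs to none of these receptor families. *Il9r*, the receptor of the mast cell and lymphocyte growth factor IL-9, had the lowest level of the 46, 0.0366 CPM per kb.

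**Figure D1:**
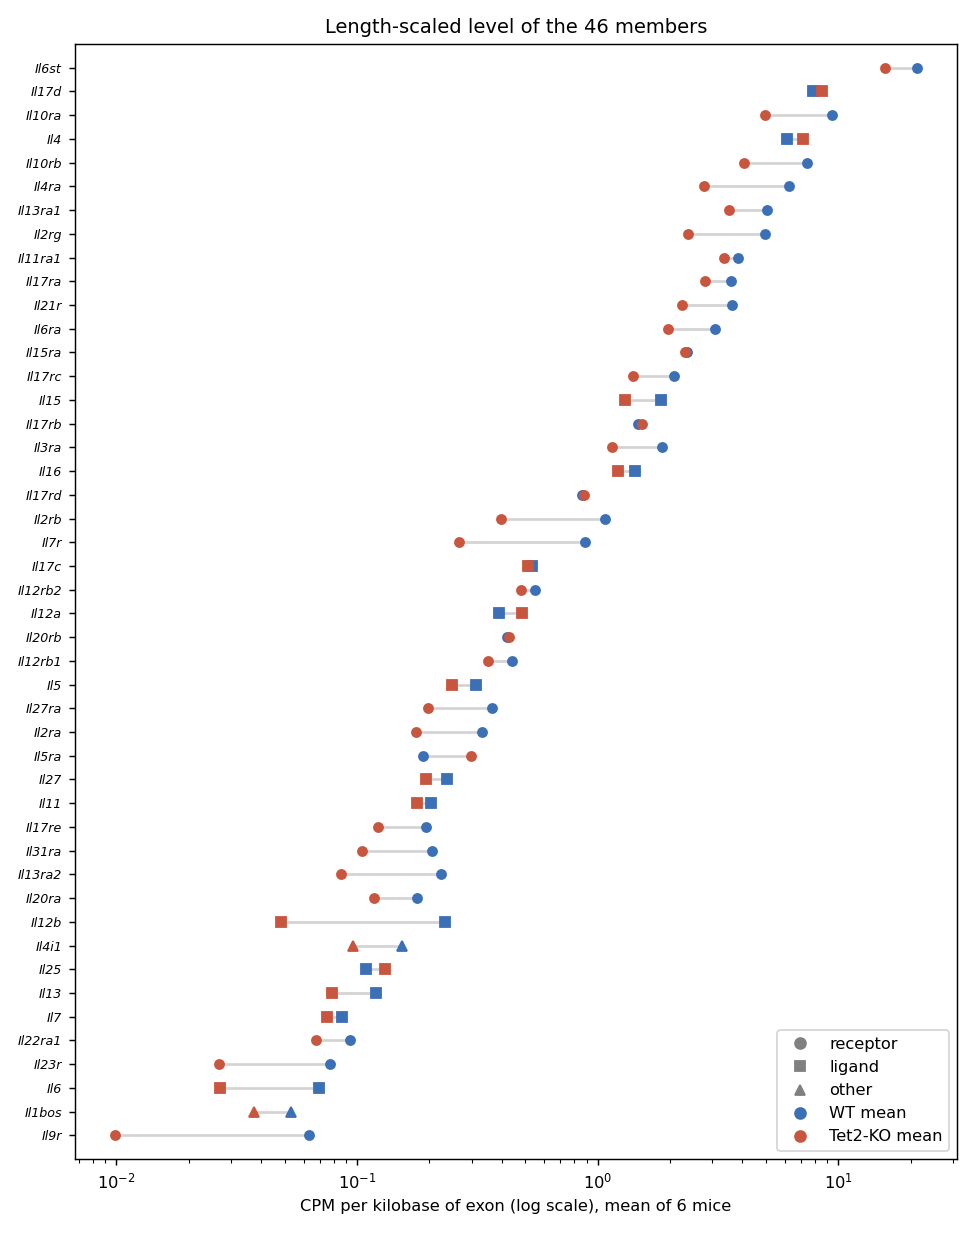
Mean level of each of the 46 members in CPM per kilobase of exon on a log axis, blue for the 6 WT mice and red for the 6 *Tet2*-KO mice, with circles for receptors, squares for ligands and triangles for *Il4i1* and *Il1bos*. *Il6st* is at the top with 21.3 CPM per kb in WT and 15.6 in *Tet2*-KO mice, and most of the red circles of the receptors lie to the left of the blue ones.

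Interleukin receptor transcripts had a lower mean level in *Tet2*-KO than in WT mice across several families, but none passed the adjusted threshold of the main test. Of the 46 members, 28 were tested (24 receptors and 4 ligands) and 18 had too few counts. By edgeR, 0 of the 28 had an adjusted p below 0.05, with 0.0246% of all genes called, and the smallest adjusted p was 0.0752 for *Il7r*. At an unadjusted p under 0.05, 18 members were lower in *Tet2*-KO mice, 64.3% of those tested beside 12.2% of all tested genes, and 0 were higher beside 10.8%. These 18 comprised 17 receptors and the ligand *Il15*, with log2 fold changes between −1.77 and −0.36 and adjusted p-values between 0.0752 and 0.211 by edgeR. The median log2 fold change was −0.55 over the tested members and 0.010 over all tested genes, and 23 members were below 0, while 47.7% of all tested genes were.

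The number of calls depended on the tool. The DESeq2 Wald test called 7 members lower (*Il7r*, *Il4ra*, *Il17ra*, *Il17rc*, *Il10rb*, *Il2rb* and *Il3ra*), with 4.81% of all genes called lower. Limma-voom with sample weights called 13 beside 7.01%, and all 13 were receptors. The same 18 members were lower at an unadjusted p under 0.05 by each of these tools. On all genes with a count, DESeq2 also called 7 members lower, beside 3.38%. In the edgeR fit with no filter *Il7r* alone was called (adjusted p = 0.0416), beside 0.106%. With *Tet2*-KO replicate 5 left out, edgeR called 14 members beside 7.3% of all genes. With WT replicate 2 left out, 13 of the 18 kept an unadjusted p under 0.05, and *Il13ra1*, *Il15*, *Il21r*, *Il2ra* and *Il6ra* did not.

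The low-count filter bears on these counts. Of the 28 tested members, 22 were above its cutoff of 0.727 CPM in every mouse, and the other 6 (*Il7r*, *Il2rb*, *Il2ra*, *Il27ra*, *Il17re* and *Il31ra*) were short of it in some mice, in 5 cases in the *Tet2*-KO group alone. All 6 were among the 18 lower members. In a fit limited to genes with at least 10 counts in every library, 12 of 22 members were lower, 54.5% beside 12.2% of all genes in that fit. In a fit with no filter, all 46 members were tested and 20 were lower, 43.5% beside 8.29%, and 0 were higher beside 7.03%.

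**Figure D2:**
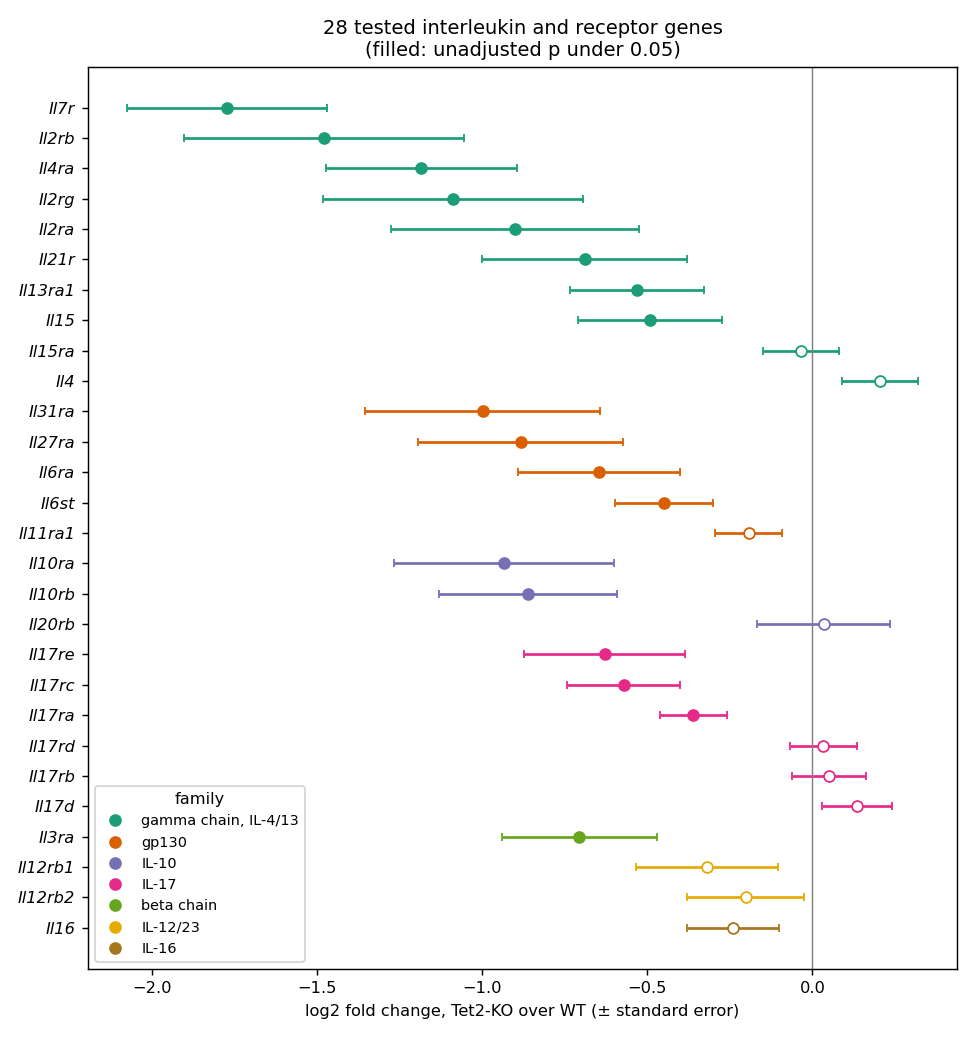
Log2 fold change of *Tet2*-KO over WT for the 28 tested members, grouped by family, with whiskers of 1 standard error from edgeR and filled points for an unadjusted p under 0.05. The 18 filled points all lie left of 0, with *Il7r* farthest at −1.77, and the open points run from −0.32 to 0.20.

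Of the 28 tested members, those with the lowest log2 fold changes were in the common gamma chain and IL-4/IL-13 family. *Il7r*, the alpha chain of the IL-7 receptor on T cells and other lymphoid cells, was at a lowest, median and highest level of 2.87, 3.82 and 6.67 CPM in WT mice and 0.434, 1.13 and 2.28 CPM in *Tet2*-KO mice. It was the single tested member whose groups did not overlap, beside 0.641% of all tested genes with such a gap in that direction. Its log2 fold change was −1.77 ± 0.30 (SE, n = 6 per group, edgeR adjusted p = 0.0752, DESeq2 adjusted p = 3.96e-06). In bulk brain RNA, fewer cells of a type and less RNA per cell cannot be told apart, here and for every receptor below.

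*Il4ra*, the chain shared by the receptors for IL-4 and IL-13, was at 25.9, 38.3 and 54.5 CPM (lowest, median and highest) in WT mice and 7.87, 14.8 and 26.0 CPM in *Tet2*-KO mice. Only the highest *Tet2*-KO mouse, replicate 5, reached the level of the lowest WT mice, and 5 of 6 were below all WT mice. The log2 fold change was −1.18 ± 0.29 (SE, edgeR adjusted p = 0.112, DESeq2 adjusted p = 0.00726). *Il2rb*, the signalling chain for IL-2 and IL-15, ranged from 2.14 to 7.96 CPM around a median of 4.43 in WT mice and from 0.496 to 4.47 CPM around a median of 1.26 in *Tet2*-KO mice. Replicate 5 again overlapped the WT mice, and the other 5 were below all of them (log2 fold change −1.48 ± 0.42, edgeR adjusted p = 0.123). *Il2rg*, the common gamma chain itself, was at 9.20, 11.5 and 16.9 CPM in WT mice and 1.92, 3.95 and 13.2 CPM in *Tet2*-KO mice. The same 5 *Tet2*-KO mice lay below every WT mouse, and replicate 5 was above the WT mean (log2 fold change −1.09 ± 0.39, edgeR adjusted p = 0.152). Of the exon bases of *Il2rg*, 30.5% are shared on the same strand with another gene model, *Gm20489*, so its count is uncertain to that extent.

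The other lower members of this family were *Il2ra*, the high-affinity IL-2 receptor chain (1.88 ± 0.775 CPM in WT and 1.01 ± 0.544 in *Tet2*-KO mice, mean ± SD, n = 6), *Il21r* (12.1 ± 4.07 and 7.47 ± 3.26 CPM), *Il13ra1*, the partner of *Il4ra* in the IL-13 receptor (18.8 ± 3.61 and 13.04 ± 4.22 CPM), and the ligand *Il15* (4.13 ± 0.712 and 2.94 ± 1.19 CPM). Their log2 fold changes were −0.90, −0.69, −0.53 and −0.49, with edgeR adjusted p-values of 0.177, 0.211, 0.161 and 0.196. *Il2ra*, *Il21r* and *Il15* lost their unadjusted p under 0.05 in several fits with 1 library left out. *Il15ra*, which presents IL-15 to cells bearing *Il2rb* and *Il2rg*, was at 10.5 ± 1.25 CPM in WT and 10.3 ± 1.62 CPM in *Tet2*-KO mice. The log2 difference of *Il15ra* was −0.034, with an interval of 2 SE from −0.26 to 0.19, and its difference from the other chains was not tested.

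Among the members of this family with too few counts for the test, *Il9r* and *Il13ra2* had groups whose CPM did not overlap. Of all 6947 genes outside the main fit with a total of 20 or more, 0.446% were lower without overlap. *Il9r* had 4, 5, 3, 8, 3 and 3 counts in WT replicates 1 to 6 and 1, 1, 0, 2, 1 and 0 in *Tet2*-KO replicates 1 to 6. Every *Tet2*-KO library was below every WT library, at counts of so few reads that sampling alone spreads them widely (log2 fold change −2.44 ± 0.60 in the fit with no filter, edgeR adjusted p = 0.0782). *Il13ra2*, a receptor that binds IL-13 with a short cytoplasmic tail, was at 0.317, 0.405 and 1.00 CPM in WT and 0.0672, 0.237 and 0.309 CPM in *Tet2*-KO mice. Its scaled levels did not overlap by a narrow margin, while its unscaled counts, 4 to 14 in WT and 1 to 6 in *Tet2*-KO libraries, did overlap (log2 fold change −1.29 ± 0.43, no filter, edgeR adjusted p = 0.163).

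*Il4*, the ligand of *Il4ra*, had 613 counts in WT and 826 in *Tet2*-KO mice, 7.55 ± 0.843 and 8.73 ± 1.49 CPM, with a log2 difference of 0.20 (2 SE interval −0.027 to 0.43). The annotation gives 1 noncoding and 3 coding *Il4* transcript models. The noncoding model reaches to 1014 bases from the end of *Kif3a*, a kinesin gene on the opposite strand, whereas the coding models lie 10492 bases away. The library kit does not mark strand, so whether these counts are of *Il4* coding RNA was not tested. *Il13*, its neighbour in function, had 12 counts in WT and 9 in *Tet2*-KO mice.

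The DNA just upstream of the start of 3 lower members is shown because it holds a motif of STAT or NF-kB factors, which act downstream of cytokine receptors. Promoter windows of 250 bases before the RefSeq start (GRCm38.p6) were found for 36 of the 46 members and 12 of the 18 lower ones. A STAT-type GAS site, TTCNNNGAA on either strand, was present in 2 of those 12, *Il7r* and *Il31ra*, and in 7.02% of 32851 promoters. An NF-kB site was present in *Il2ra* alone of the 12, as a pair of overlapping matches, and in 3.90% of all promoters. An AP-1 site, TGANTCA, and an ISRE, GAAANNGAAA, which occurred in 6.75% and 2.98% of all promoters, were in 0 of the 12. The window of *Il7r* (chr15:9529877-9530126, minus strand) reaches into an exon of another *Il7r* transcript model that starts farther upstream. The windows of *Il31ra* (chr13:112580663-112580912, minus strand) and *Il2ra* (chr2:11642542-11642791, plus strand) do not overlap exons of their genes. That of *Il31ra* nevertheless lies inside the gene as GENCODE annotates it (112519898 to 112594360), downstream of its farthest start. Capitals mark the GAS match at −142 to −134 in *Il7r* and at −191 to −183 in *Il31ra*, and the NF-kB matches at −201 to −191 in *Il2ra*, counted from the start.
Il7r: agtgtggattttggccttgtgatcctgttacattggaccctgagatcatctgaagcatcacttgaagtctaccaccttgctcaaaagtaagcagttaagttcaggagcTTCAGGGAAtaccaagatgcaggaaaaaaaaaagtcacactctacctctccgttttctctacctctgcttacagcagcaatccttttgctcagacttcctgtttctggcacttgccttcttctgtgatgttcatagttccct
Il31ra: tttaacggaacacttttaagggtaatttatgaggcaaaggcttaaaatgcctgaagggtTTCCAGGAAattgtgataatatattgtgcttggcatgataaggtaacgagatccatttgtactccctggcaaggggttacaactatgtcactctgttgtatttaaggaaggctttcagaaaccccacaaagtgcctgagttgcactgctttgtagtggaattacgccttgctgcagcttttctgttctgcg
Il2ra: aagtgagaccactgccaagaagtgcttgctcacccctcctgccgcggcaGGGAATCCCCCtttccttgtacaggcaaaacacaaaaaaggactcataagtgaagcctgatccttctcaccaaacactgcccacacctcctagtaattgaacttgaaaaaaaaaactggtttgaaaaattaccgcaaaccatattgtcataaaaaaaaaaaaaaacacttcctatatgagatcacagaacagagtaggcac
A match is a description of letters and not evidence of binding.

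**Figure D3:**
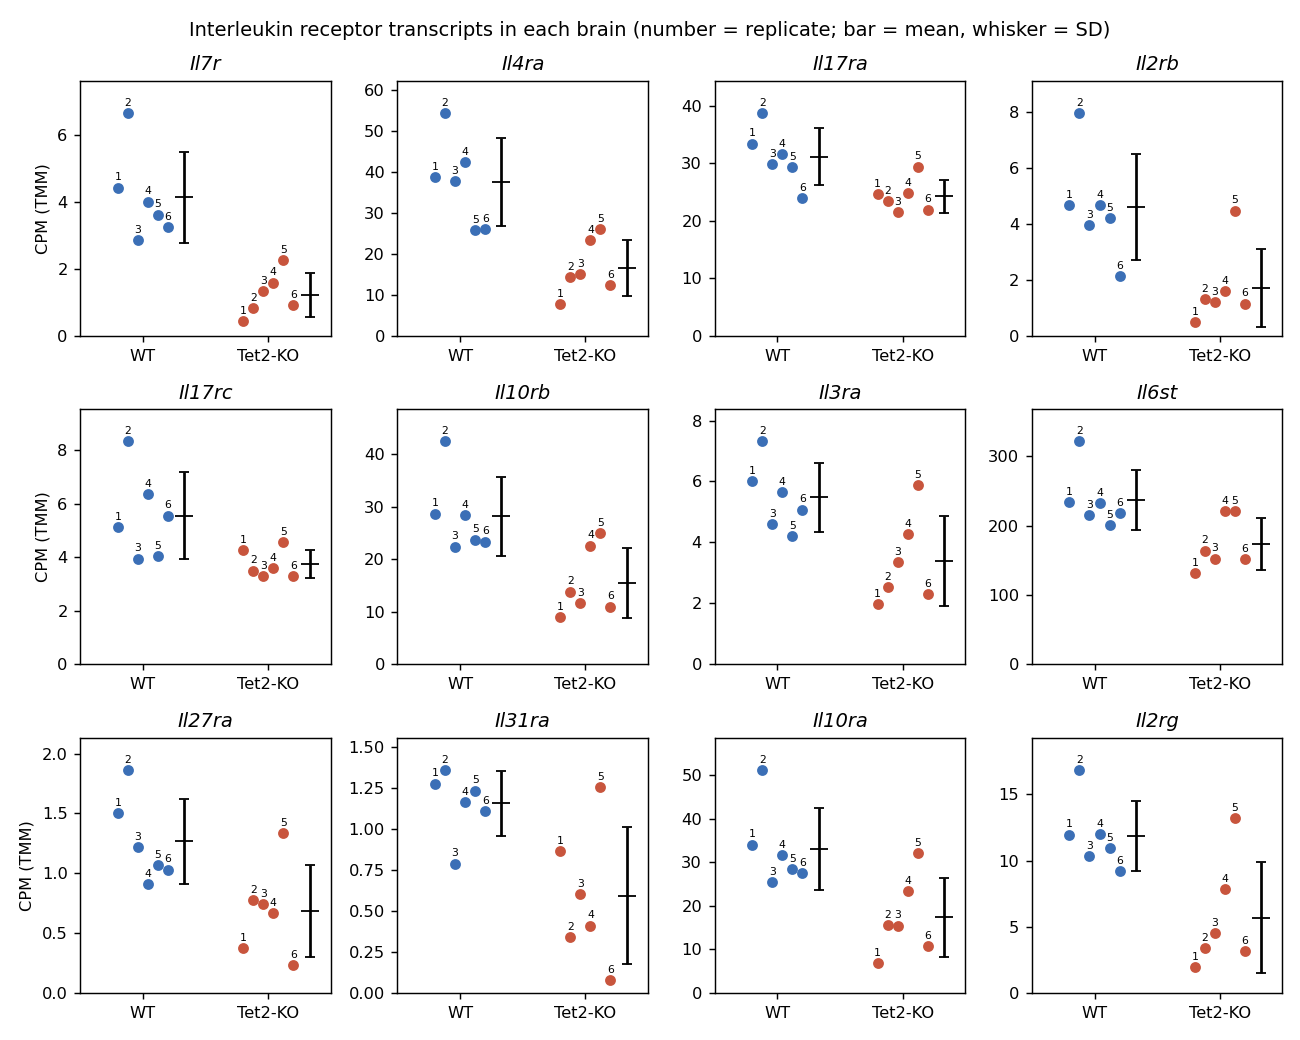
CPM of the 12 members with the smallest edgeR p-values in each of the 6 WT (blue) and 6 *Tet2*-KO (red) mice, numbered by replicate, with the mean and SD to the right of the points and every axis starting at 0. The groups of *Il7r* do not overlap, and in each of the other panels *Tet2*-KO replicate 4 or 5 is the highest of its group and reaches into the WT range.

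In the gp130 family, 4 of 5 tested members were lower at an unadjusted p under 0.05, beside 12.2% of all tested genes. Of these, *Il27ra* and *Il31ra* were each over the filter cutoff in 6 WT and 2 *Tet2*-KO mice. They thus entered the test through the group where they were high. *Il6st*, which encodes gp130, was at 201, 225 and 321 CPM (lowest, median and highest) in WT mice and 131, 158 and 221 CPM in *Tet2*-KO mice. *Tet2*-KO replicates 4 and 5 were within the WT range and the other 4 below it (log2 fold change −0.45 ± 0.15, edgeR adjusted p = 0.134). *Il6ra*, the chain that binds IL-6, was at 26.5 ± 6.41 CPM in WT and 16.9 ± 6.48 CPM in *Tet2*-KO mice (log2 fold change −0.65 ± 0.24, edgeR adjusted p = 0.160).

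*Il27ra*, the IL-27 receptor chain, was at 0.907, 1.15 and 1.86 CPM in WT mice and 0.231, 0.704 and 1.33 CPM in *Tet2*-KO mice. Replicate 5 overlapped the WT mice and the other 5 did not (log2 fold change −0.88 ± 0.31, edgeR adjusted p = 0.137). *Il31ra*, which resembles gp130 and pairs with the oncostatin M receptor to bind the T cell cytokine IL-31, ranged from 0.790 to 1.36 CPM around a median of 1.20 in WT mice and from 0.0769 to 1.26 CPM around a median of 0.508 in *Tet2*-KO mice. Replicates 1 and 5 overlapped the WT range (log2 fold change −0.998 ± 0.356, edgeR adjusted p = 0.139). *Il11ra1*, the IL-11 receptor chain, was at 17.1 ± 2.86 and 14.9 ± 1.36 CPM, a log2 difference of −0.19 with a 2 SE interval from −0.40 to 0.0094. The ligand *Il6* had 14 counts in the 6 WT libraries and 6 in the 6 *Tet2*-KO libraries, and a difference was not detectable at this depth (no filter, log2 difference −1.34 ± 0.75). By qRT-PCR in larger groups at the same time point, the study reported significantly lower *Il6* in brains of the *Tet2*-KO group.

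Both chains of the IL-10 receptor, through which IL-10 restrains macrophages and microglia, were lower. *Il10ra* was at 25.4, 30.1 and 51.3 CPM in WT mice and 6.88, 15.5 and 32.1 CPM in *Tet2*-KO mice. *Tet2*-KO replicate 5 was above 4 of the WT mice and the other 5 were below all of them (log2 fold change −0.93 ± 0.33, edgeR adjusted p = 0.150). *Il10rb* was at 22.4, 26.1 and 42.4 CPM in WT mice and 8.98, 12.7 and 24.9 CPM in *Tet2*-KO mice. Replicates 4 and 5 were in the WT range and the other 4 were below it (log2 fold change −0.86 ± 0.27, edgeR adjusted p = 0.128, DESeq2 adjusted p = 0.0386). Of its exon bases, 14.9% are shared with another gene model on the same strand. *Il20rb*, a chain of the IL-20 receptors, had the p closest to 1 of the tested members, with 1.76 ± 0.524 CPM in WT and 1.80 ± 0.336 CPM in *Tet2*-KO mice and a 2 SE interval of the log2 difference from −0.37 to 0.44. The ligand *Il10* had 7 counts in WT and 8 in *Tet2*-KO mice.

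In the IL-17 family, 3 of 6 tested members were lower at an unadjusted p under 0.05, beside 12.2% of all tested genes. Of these, *Il17re* was over the filter cutoff in 6 WT and 2 *Tet2*-KO mice. *Il17ra*, the shared chain, was at 23.9, 30.8 and 38.7 CPM in WT mice and 21.5, 24.0 and 29.4 CPM in *Tet2*-KO mice. The groups overlapped, with 3 *Tet2*-KO mice below all WT mice and all 6 below the WT mean (log2 fold change −0.36 ± 0.10, edgeR adjusted p = 0.118, DESeq2 adjusted p = 0.0196). *Il17rc*, its partner for IL-17A and IL-17F, was at 3.95, 5.33 and 8.32 CPM in WT mice and 3.29, 3.55 and 4.55 CPM in *Tet2*-KO mice. The WT mice were the more scattered group, and 4 *Tet2*-KO mice were below all of them (log2 fold change −0.57 ± 0.17, edgeR adjusted p = 0.123).

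*Il17re*, the receptor of IL-17C, was at 1.13 ± 0.222 and 0.714 ± 0.272 CPM (log2 fold change −0.63 ± 0.24, edgeR adjusted p = 0.158). The intervals of 2 SE for *Il17rb*, the IL-25 receptor chain, and *Il17rd* spanned −0.17 to 0.27 and −0.17 to 0.24. *Il17d*, the most abundant ligand per kilobase, was at 9.98 ± 1.09 CPM in WT and 10.9 ± 1.60 CPM in *Tet2*-KO mice (log2 difference 0.14 ± 0.11). *Il17a* had 0 counts in all 12 libraries, and the upper limit that a count of 0 allows was at most 0.250 CPM in a library, covering counting error only.

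In the beta chain family, *Il3ra*, the IL-3 receptor chain, was at 4.20, 5.36 and 7.32 CPM in WT mice and 1.98, 2.94 and 5.88 CPM in *Tet2*-KO mice. *Tet2*-KO replicates 4 and 5 were in the WT range (log2 fold change −0.71 ± 0.23, edgeR adjusted p = 0.131). *Il5ra*, the eosinophil and B cell receptor for IL-5, was not tested in the main fit although its total of 152 counts was above that of *Il31ra*, with 149, the lowest tested. Its counts ran from 5 to 14 in WT and from 10 to 25 in *Tet2*-KO mice, with a log2 difference of 0.60 ± 0.30 in the fit with no filter (edgeR adjusted p = 0.342).

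The IL-12 and IL-23 receptor chains *Il12rb1* and *Il12rb2* were at 1.80 ± 0.351 and 2.09 ± 0.228 CPM in WT mice and 1.43 ± 0.473 and 1.82 ± 0.549 CPM in *Tet2*-KO mice. Neither had an unadjusted p under 0.05, and 40.0% of the exon bases of *Il12rb2* are shared with *Serbp1* on the opposite strand. *Il12b*, which encodes the subunit common to IL-12 and IL-23 and was singled out after its values were seen, had 3, 10, 4, 12, 5 and 4 counts in the WT mice and 0, 0, 0, 2, 5 and 1 in the *Tet2*-KO mice. Replicate 5 overlapped the WT mice and the other 5 were below all of them (no filter, log2 fold change −2.35 ± 0.62, edgeR adjusted p = 0.0934). *Il23a*, the IL-23 subunit, had 8 and 9 counts. *Il16*, a chemoattractant for CD4+ cells, was at 11.3 ± 1.86 and 9.57 ± 1.90 CPM, and 17.4% of its exon bases overlap other genes.

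Of the 18 members with too few counts for the main fit, with totals of 20 to 152, 15 had a log2 difference below 0 in the fit with no filter, and 3 had an unadjusted p under 0.05 (*Il9r*, *Il13ra2* and *Il12b*). Among all 6947 genes outside the main fit with a total of 20 or more, 51.0% were below 0 and 8.12% had an unadjusted p under 0.05. *Il4i1* shares 86.3% of its exon bases with neighbouring genes, so its 92 counts cannot be assigned to it with certainty.

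The mice of each group differed among themselves. Of the 28 tested members, 19, 21, 19, 9, 4 and 21 were below every WT mouse in *Tet2*-KO replicates 1 to 6. These counts have no background, since the share over all tested genes was not computed for these mice. The median log2 ratio of the members to the WT mean was −0.91, −0.61, −0.66, −0.15, −0.035 and −0.81 in these mice, so that replicates 4 and 5 were close to the WT mean and the other 4 were well below it. Among the WT mice it was highest in replicate 2, at 0.43. WT replicate 2 was the highest WT mouse for 17 of the 18 lower members, and *Tet2*-KO replicate 5 was the highest *Tet2*-KO mouse for 13 of them.

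**Figure D4:**
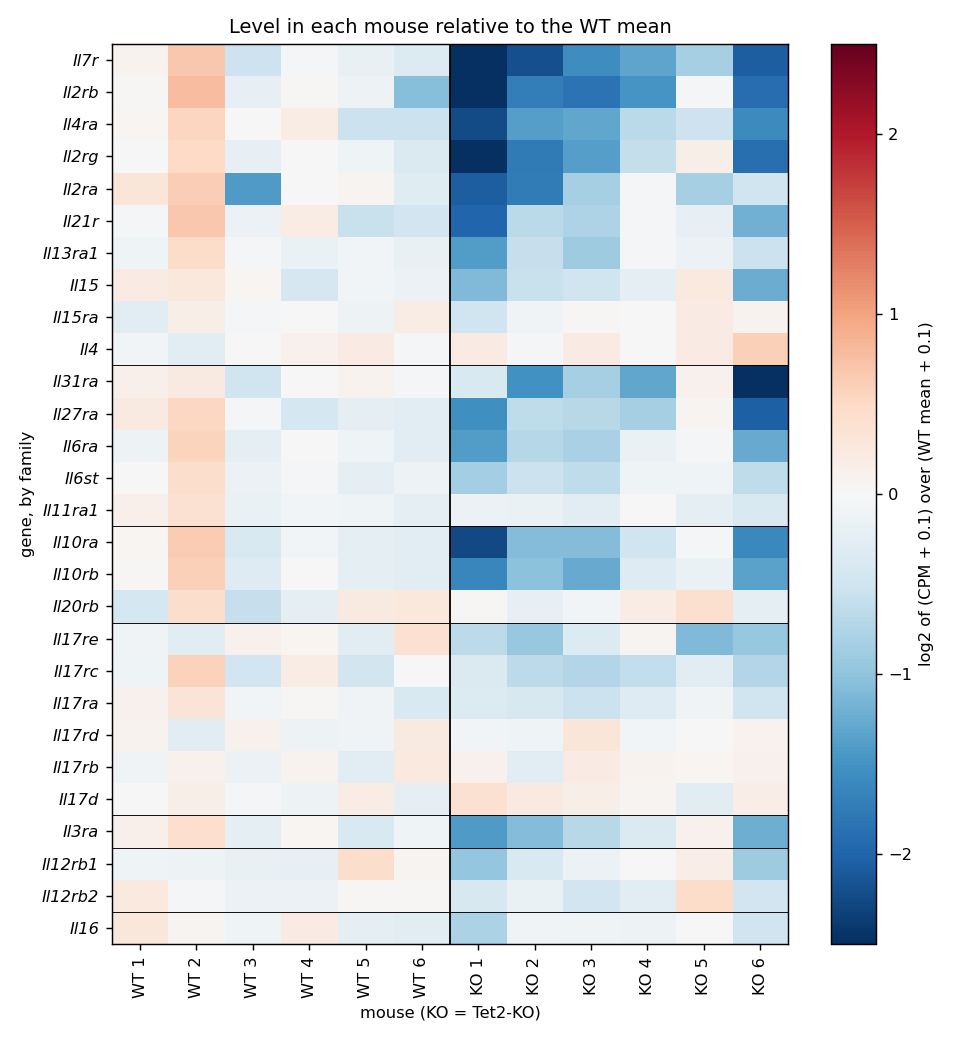
Log2 ratio of CPM + 0.1 to the WT mean + 0.1 for the 28 tested members (rows, by family) in each of the 12 mice (columns), with colours limited at −2.5 and 2.5. WT replicate 2 is the reddest column, with a median ratio of 0.43, and *Tet2*-KO replicates 1, 2, 3 and 6 are the bluest, with medians from −0.91 to −0.61.

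Summed markers of activated phagocytes, monocytes, neutrophils, B cells, NK cells, mast cells and fibroblasts were all highest in WT replicate 2 and *Tet2*-KO replicate 5. Those of T cells, homeostatic microglia and endothelial cells were highest in WT replicate 2 and *Tet2*-KO replicate 4. The summed level of 7 activated phagocyte markers was 1063 to 2770 CPM in WT and 64.9 to 1563 CPM in *Tet2*-KO mice, and 6 of 7 were lower at an unadjusted p under 0.05, the level at which 12.2% of all tested genes were lower and 10.8% higher. No marker of any list had an adjusted p below 0.05 by edgeR. Monocyte markers summed to 28.1 to 57.7 and 1.30 to 39.4 CPM (5 of 5 lower), and neutrophil markers to 67.2 to 147 and 19.5 to 78.7 CPM (3 of 3 tested lower). Of the mean neutrophil sums, 88.2 CPM in WT and 47.4 CPM in *Tet2*-KO mice, *Csf3r* alone held 83.1 and 45.7 CPM. The untested neutrophil markers *Retnlg*, *Camp* and *Ly6g* had 46, 17 and 2 counts in WT and 47, 15 and 0 in *Tet2*-KO mice. T cell markers summed to 14.7 to 22.7 CPM in WT and 7.73 to 13.9 CPM in *Tet2*-KO mice without overlap, and 5 of 5 tested were lower. No other marker list had sums without overlap. Among the 8 T cell markers, *Lck* alone had groups that did not overlap, beside 0.641% of all tested genes in that direction. B cell markers summed to 1.98 to 5.67 and 0.462 to 2.04 CPM, and NK cell markers to 1.11 to 3.44 and 0.124 to 2.04 CPM. Homeostatic microglia markers overlapped more, at 644 to 1162 and 319 to 841 CPM, with 1 of 8 lower. Fibroblast markers summed to 399 to 972 and 82.8 to 523 CPM (4 of 4 lower), endothelial markers to 185 to 225 and 166 to 200 CPM (2 of 5 lower), and neuron markers to 3466 to 5031 and 4561 to 6091 CPM (6 of 6 higher). Red blood cell markers summed to 19.7 to 28.5 and 24.4 to 36.1 CPM (2 of 4 higher), and mast cell markers, none of which was tested, to 0.431 to 3.37 and 0.0769 to 0.785 CPM. Of the astrocyte markers, 1 of 5 was higher (4954 to 5106 and 4913 to 5550 CPM), and of the oligodendrocyte markers 0 of 5 were lower or higher (4542 to 5945 and 4208 to 5900 CPM). The higher astrocyte marker, *Slc1a2*, made up most of the astrocyte sum, with means of 4063 CPM in WT and 4459 CPM in *Tet2*-KO mice. The log2 differences of *Aqp4*, *Gja1*, *Aldh1l1* and *Slc1a3* were −0.40, −0.20, −0.039 and 0.054. By staining, the study found that T cells and macrophages were present in similar numbers in the brains of both groups at this time point. Whether the marker differences reflect cell numbers was not tested, and neither was their part in the receptor values.

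**Figure D5:**
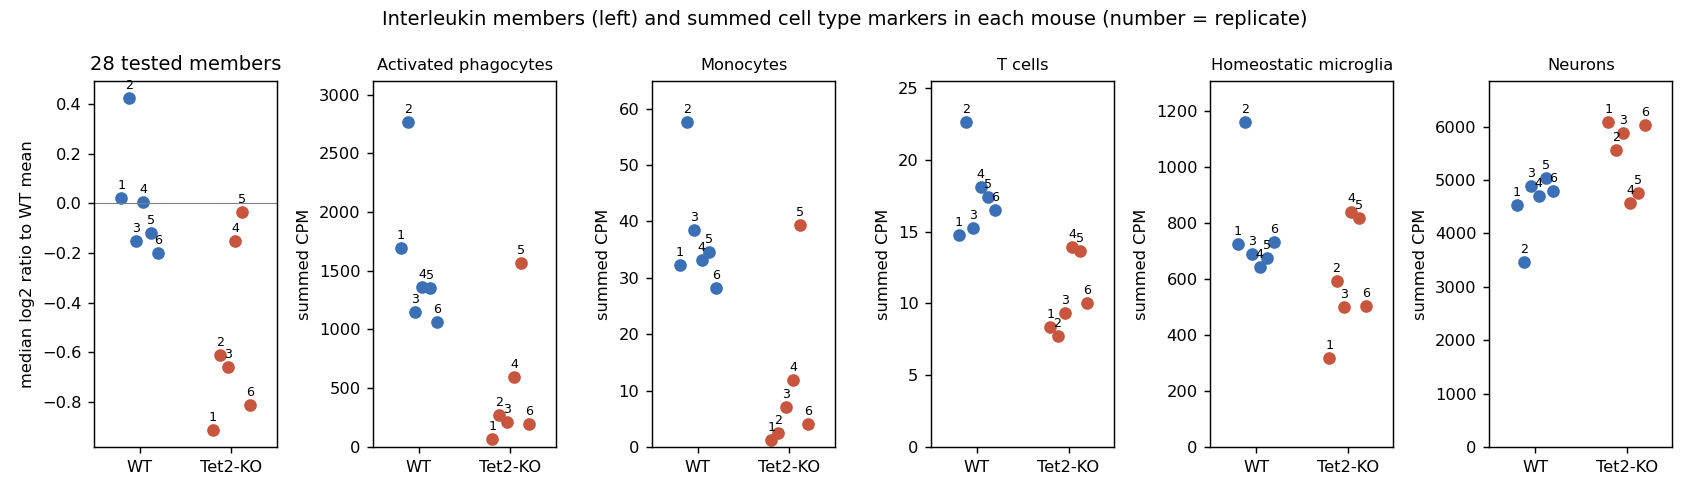
Left, median log2 ratio to the WT mean over the 28 tested members in each mouse; other panels, summed CPM of marker genes of 5 cell types in the same mice, with axes from 0 and points numbered by replicate. WT replicate 2 (0.43) and *Tet2*-KO replicate 5 (−0.035) are the highest mice of their groups in the left panel and in the panels of activated phagocytes and monocytes.

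The chains, kinases and inhibitors that work with these receptors were read from lists of genes outside the members. Of 13 tested partner chains and related ligands, 5 were lower at an unadjusted p under 0.05 and 0 were higher. These were *Csf2rb* and *Csf2rb2*, the beta chains that pair with *Il3ra* (log2 fold changes −1.65 and −1.54), oncostatin M *Osm* and its receptor *Osmr*, which pairs with gp130 and with *Il31ra* (−1.01 and −0.86), and the TSLP receptor *Crlf2* (−0.42). *Csf2rb* and *Csf2rb2* are close copies, so the split of reads between them is uncertain. *Lifr*, which also pairs with gp130, was at 109 ± 4.64 CPM in WT and 113 ± 4.27 CPM in *Tet2*-KO mice.

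Of 13 signal transducers, 9 were lower and 0 higher. They included *Jak3*, the kinase bound to the common gamma chain (−0.65), *Stat6*, which acts below *Il4ra* (−0.63), *Stat5a* (−0.64), and *Stat3*, which acts below gp130 and the IL-10 receptor (−0.41). Both *Traf3ip2* and *Traf6*, which act below IL-17 receptors, had an unadjusted p above 0.05 (log2 differences 0.062 and −0.061). Of 8 feedback inhibitors, *Socs3* and *Socs1* were lower (−1.38 and −0.69), and *Socs5* and *Socs7* were higher (0.17 and 0.19). *Socs2*, *Cish*, *Socs4* and *Socs6* had an unadjusted p above 0.05 (log2 differences 0.034, 0.066, −0.058 and −0.023). The median over the list was 0.0055. None of the genes of these 3 lists had an adjusted p below 0.05 by edgeR, and 12.2% of all tested genes were lower and 10.8% higher at the unadjusted level.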

How the data were processed

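Brain RNA of 12 mice was depleted of ribosomal RNA, made into libraries with a kit that does not mark strand and sequenced as paired reads. The authors trimmed reads with Trimmomatic 0.36, aligned them with STAR 2.5.2b (build mm10 in the submitters' processing notes) and counted unique reads within exons with featureCounts of Subread 1.5.2. They deposited raw counts per gene, without normalization. The annotation and the strand setting of the counting are not given in the sources used here. Groups came from the titles.

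Symbols, exon lengths and positions were taken from GENCODE M21 (GRCm38), and 48970 of 49315 identifiers had a symbol. Analyses used R 4.3.3. Counts were filtered with filterByExpr (minimum count 10), scaled with TMM and tested with edgeR 4.0.16 (robust quasi-likelihood F test, 6 against 6, Benjamini-Hochberg over 20290 genes, threshold 0.05). Alternatives were DESeq2 1.42.0, limma 3.58.1 voom with quality weights, other scalings and filters, a replicate block and each library left out in turn. On simulated counts for this comparison (20108 genes, 200 changed by a log2 fold of 2), edgeR recovered 93.5% of changed genes with 5.56% false calls, DESeq2 94.0% with 10.9% and voom 94.0% with 6.47%. Genes were simulated independently of each other, with a change larger than that of any tested member. These rates therefore do not describe power or error for the members. Ratios to the WT mean used a pseudocount of 0.1 CPM. No pair of libraries within a group agreed within sampling noise (chi-square per degree of freedom 1.91 to 24.5 over 30 pairs), so none was a repeat count of another. This check cannot tell whether libraries came from separate brains, and that each is 1 animal was taken from the study. Limits from counts cover counting error only.

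The members and lists were chosen with earlier results of these data known, so no list test was made. Genes shown with the spread over mice were the 12 members with the smallest edgeR p and members whose groups did not overlap. Group values were given for the other members with an unadjusted p under 0.05, the highest member of each family per kilobase, the member with p closest to 1, and the ligands *Il4*, *Il6*, *Il10*, *Il13*, *Il17a* and *Il23a*. The other members given with values (*Il15ra*, *Il11ra1*, *Il12rb1*, *Il17rb*, *Il17rd*, *Il5ra*, *Il12b* and *Il4i1*) fall outside this rule and were chosen after their values were seen. Promoter windows came from RefSeq. The single values of 1 listed gene are not reported here.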

Additional observations from a re-analysis of the deposited data

Results flagged for a closer look

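In 10 of 60 groups (30 members, WT and *Tet2*-KO separately), 1 mouse stood apart from the other 5 by Dixon's criterion. For a single group, chance gives about 1 in 20. The 60 groups are the same 12 mice over many genes and are not independent, so that rate is no background for the count. In 6 of the 10, WT replicate 2 was the high mouse. Its levels were 321 CPM of *Il6st* (next WT mouse 234), 51.3 of *Il10ra* (34.1), 42.4 of *Il10rb* (28.7), 39.2 of *Il6ra* (26.3), 26.1 of *Il13ra1* (18.2) and 16.9 CPM of *Il2rg* (11.99). *Tet2*-KO replicate 5 stood above its group with 4.47 CPM of *Il2rb* (next 1.59) and 2.90 CPM of *Il12rb2* (1.85). *Tet2*-KO replicate 6 had the highest *Il4*, 11.5 CPM (next 8.74), and *Tet2*-KO replicate 2 the lowest *Il17rb*, 4.47 CPM (next 5.65).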

How the results depend on the processing

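The 18 lower members and the 0 higher ones were the same genes under the DESeq2 Wald test, limma-voom, DESeq2 size factors and upper quartile scaling. The count past the adjusted threshold was 0 by edgeR, 7 by DESeq2, 13 by limma-voom, 1 (*Il7r*, adjusted p = 0.0416) by edgeR with no filter and 7 by DESeq2 on all genes with a count, an alternative chosen after seeing the data. It ran from 0 to 14 with 1 library left out, with 14 without *Tet2*-KO replicate 5. The median log2 fold change was −0.41 with at least 10 counts in every library, a fit without 6 of the lower members, and from −0.62 (without *Tet2*-KO replicate 5) to −0.40 (without *Tet2*-KO replicate 1) with 1 library left out. The lower members numbered 13 (without WT replicate 2) to 19, and the higher ones 0 to 1 (*Il4*, *Il5ra* or *Il17d*). *Il20rb*, the member with p closest to 1, changed sign, between −0.063 and 0.15. Upper quartile scaling moved the median of all genes to 0.043 and that of the members to −0.52. With the replicate number as a block, 17 members were lower (*Il2ra* was lost), 0 passed the adjusted threshold and the median was −0.56. Same-numbered mice correlated between −0.17 and 0.23 and 1 of 6 numbers correlated best with itself. Pairing by number was thus not detected, and weak correlations cannot exclude it. Low counts limit the ligands, since members with totals under 149 counts, and *Il5ra*, were below the filter.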
